A study of Arabidopsis thaliana with 12 samples.

Results

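The first day at 25 °C was set against 16 °C in 638 alternative splicing events of *Arabidopsis thaliana*, and every event was used. The question was which transcripts differ in their splicing soon after the growth temperature is raised. An absolute difference in PSI (percentage spliced in, written from 0 to 1) of at least 0.10, 25 °C day 1 minus 16 °C, was found in 388 of the 638 events (60.8%), in 313 of 511 genes. PSI was higher at 25 °C in 191 events (29.9% of all) and lower in 197 (30.9%). The differences ran from 0.44 for an alternative 3′ site of the transcribed pseudogene AT2G19250 to -0.44 for one of *VLN3*, a gene for the actin-bundling protein villin.

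RNA came from the 25 °C day 1 group, wild-type plants of the Columbia accession raised for 5 weeks at 16 °C and then moved to 25 °C, and from the 16 °C group of the same accession and age that was left at 16 °C. Both were kept in short days (8 h light, 16 h dark). Each group had 3 samples of about 10 plants, out of 12 samples in 4 groups. The samples were enriched for the shoot apical meristem. The methods state that leaves were taken off, but the labels also name young leaves, and a table without expression levels cannot be checked for markers of either. The deposited table gives 1 PSI per event and group, so the spread between samples and the read depth of an event cannot be given here, and no test was run on the differences below. Per the methods, an event was listed only where enough isoform-specific reads were found in the replicates, PSI differed less within a condition than between conditions, and a Bayes factor on merged replicates passed the authors' limit. "Higher" and "lower" compare those 2 values only, and 25 °C without a day stands for the day 1 group. Since each event was called in this way on at least 1 of 3 warm days, 60.8% is a share of a selected list and not of all splicing events.

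Most genes of the plant carry introns, and the spliceosome can use alternative sites, leave out an exon or leave an intron in. In plants, intron retention is the most common of these. A retained intron often brings a premature stop codon, which can expose the mRNA to nonsense-mediated decay or keep it in the nucleus, and genes of the splicing machinery itself are well-known cases. For a retained intron (RI) a high PSI means that the intron is kept more often. For a skipped exon (SE) a high PSI was read as more frequent inclusion of the exon, which the methods do not state. For alternative 3′ sites (A3), alternative 5′ sites (A5) and mutually exclusive exons (MXE) no source states which isoform PSI counts, and their sign has no fixed meaning.

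Event positions are not part of the table. For 3 genes with 1 RI event past 0.10, however, the RefSeq models (assembly TAIR10.1) hold only 1 intron. They are the VQ motif gene AT5G65170, with PSI of 0.88 at 25 °C day 1 and 0.57 at 16 °C, the remorin gene AT2G41870, with 0.54 at 25 °C and 0.21 at 16 °C, and AT4G02540, which encodes a C1 domain protein, with 0.52 at 25 °C and 0.74 at 16 °C. In another 4 genes with 1 RI event and a difference of at least 0.20, only 1 intron is also shown as retained in another RefSeq model and it lies between coding exons, which makes it a candidate for the event and no more. These 4, chosen after their values were seen, are *POB1* (0.79 at 25 °C day 1 and 0.55 at 16 °C), the Patched family gene AT4G38350 (0.45 at 25 °C and 0.24 at 16 °C), the Tudor-like RNA-binding gene AT4G32440 (0.55 at 25 °C and 0.78 at 16 °C) and AT1G60700 (0.17 at 25 °C and 0.37 at 16 °C), which encodes a forkhead-associated domain protein. The introns are printed to show what was kept or removed, 5′ to 3′ on the gene's strand, with the GT and AG at the ends in capitals. For AT2G41870, whose intron has 576 bases, the 2 splice sites stand in its place, with 3 exon bases before the GT and after the AG.
AT5G65170 (165 bases, chr5:26041726-26041890, + strand, higher at 25 °C): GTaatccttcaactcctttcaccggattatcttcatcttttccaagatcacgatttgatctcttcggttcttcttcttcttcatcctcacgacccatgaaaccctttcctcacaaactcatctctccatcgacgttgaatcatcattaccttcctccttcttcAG
POB1 (116 bases, chr3:22797938-22798053, + strand, higher): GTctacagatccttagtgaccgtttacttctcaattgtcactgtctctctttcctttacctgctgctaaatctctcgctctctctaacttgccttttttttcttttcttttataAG
AT4G38350 (72 bases, chr4:17963510-17963581, - strand, higher): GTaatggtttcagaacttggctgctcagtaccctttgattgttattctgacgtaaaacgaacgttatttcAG
AT2G41870, 5′ site (intron chr2:17471320-17471895, - strand, higher): gagGTaatttttt
AT2G41870, 3′ site: tttgggatcgatgcatgcAGagg
AT4G02540 (109 bases, chr4:1118898-1119006, + strand, lower): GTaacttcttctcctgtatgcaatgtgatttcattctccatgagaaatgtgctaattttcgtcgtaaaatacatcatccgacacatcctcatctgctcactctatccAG
AT4G32440 (124 bases, chr4:15658273-15658396, + strand, lower): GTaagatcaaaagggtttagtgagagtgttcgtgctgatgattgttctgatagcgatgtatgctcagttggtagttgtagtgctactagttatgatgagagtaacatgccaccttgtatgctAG
AT1G60700 (97 bases, chr1:22352357-22352453, - strand, lower): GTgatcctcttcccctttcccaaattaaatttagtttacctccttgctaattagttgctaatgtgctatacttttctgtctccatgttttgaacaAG

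All 7 introns begin with GT and end with AG, as do 98.3% of the 136438 introns in nuclear RefSeq models. They differ in what their retention would do to the reading frame. Where the upstream exon was read on into the intron of AT5G65170 or AT4G38350, no stop codon was met and the length is a multiple of 3, so the frame goes on into the next exon. Of 120341 introns between coding exons in the annotation, 3.4% have both properties. The introns of AT5G65170 and AT4G38350 are also shown as retained in another RefSeq model. That share covers all introns between coding exons, so it is not a matched background for them. In *POB1* a stop codon began at base 14 of the intron, in AT2G41870 at base 19 and in AT1G60700 at base 52. In AT4G02540 and AT4G32440 no stop was met within the intron, but the length of 109 and 124 bases shifts the frame after it. On days 3 and 5 at 25 °C, PSI of AT5G65170 was 0.86 and 0.91, that of AT2G41870 0.72 and 0.58, and that of AT4G02540 0.48 and 0.47.

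All of the main types held events past 0.10 at similar shares. They made up 153 of 246 RI events (62.2%), 124 of 213 A3 (58.2%), 70 of 112 A5 (62.5%), 40 of 65 SE (61.5%) and 1 of 2 MXE. Among those past 0.10, RI events were higher at 25 °C in 68 and lower in 85, A3 in 63 and 61, A5 in 37 and 33, and SE in 22 and 18. At a difference of at least 0.20, RI events were near even, higher in 25 and lower in 22. The median PSI of all RI events was 0.45 at 25 °C day 1 and 0.38 at 16 °C, although more of them were lower past 0.10. The median absolute difference was 0.11 over all events and 0.16 over those past 0.10. At the threshold, 45 events differed by exactly 0.10 (23 higher and 22 lower) and 35 by 0.09 (13 and 22). A rounded difference can be off by up to 0.01, so these events could lie on either side. At least 0.20 was reached by 126 events in 109 genes and at least 0.30 by 40 events in 34 genes, 21 higher and 19 lower. At the other end, 62 events differed by less than 0.05 and 1, an A3 event of AT3G59780, had 0.26 in both groups.

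**Figure D1:**
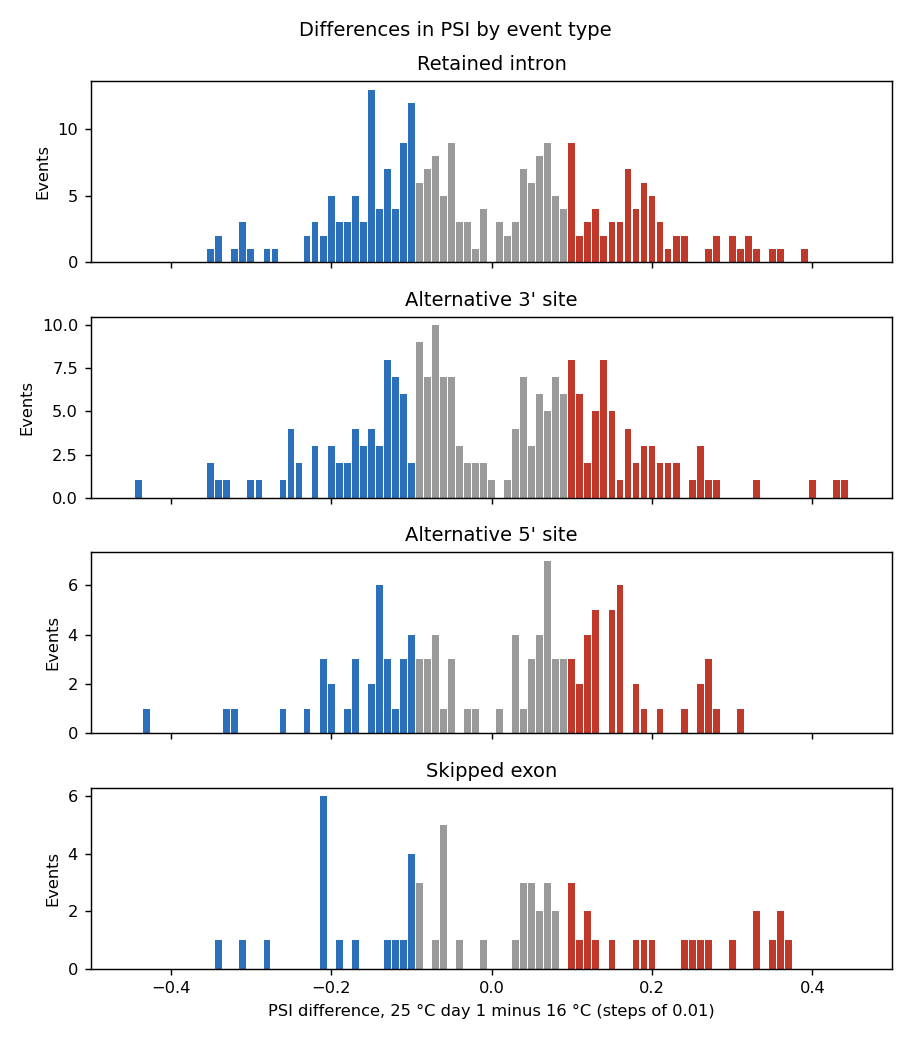
Number of events (y axis) at each PSI difference, 25 °C day 1 minus 16 °C, in steps of 0.01 (x axis), for RI, A3, A5 and SE events. Red bars are higher and blue bars lower at 25 °C by at least 0.10, grey bars are nearer to 0. Both sides are filled in every type, and differences past 0.30 occur on both sides in each of the 4 panels.

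The sign of the difference went with the 16 °C level. PSI is bounded by 0 and 1, and the 16 °C value enters both the level and the difference. Of the 185 events with PSI under 0.25 at 16 °C, 72 were past 0.10, 64 of them higher at 25 °C and 8 lower. Of the 169 events above 0.75, 84 were past 0.10, 10 higher and 74 lower. Between 0.25 and 0.75, 232 of 284 were past 0.10 (81.7%), 117 higher and 115 lower. Of the RI events past 0.10 with a 16 °C PSI above 0.75, 2 were higher and 35 lower. Without the band above 0.75, RI events past 0.10 stood at 66 higher and 50 lower. That cut keeps the low band, where RI events under 0.25 stood at 19 higher and 5 lower. Between 0.25 and 0.75 they were near even, with 47 higher and 45 lower. The 2 higher RI events above 0.75 were in *SAR1*, which encodes a nucleoporin (0.95 at 25 °C day 1 and 0.82 at 16 °C), and in AT3G61010 (0.92 at 25 °C and 0.78 at 16 °C). Among the 35 were introns of the mitochondrial transcription termination factor family gene AT1G61970 (0.59 at 25 °C and 0.91 at 16 °C), of AT1G54770, annotated as an Fcf2 pre-rRNA processing protein (0.59 at 25 °C and 0.90 at 16 °C), of the sodium/bile acid symporter family gene AT3G56160 (0.51 at 25 °C and 0.79 at 16 °C) and of *VCS*, which encodes a scaffold of mRNA decapping (0.60 at 25 °C and 0.76 at 16 °C). After 1 day at 25 °C these 4 introns had PSI of 0.51 to 0.60, against 0.76 to 0.91 at 16 °C. They were picked after their values were seen. Over all 59 RI events with a 16 °C PSI above 0.75, the median difference was -0.11.

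**Figure D2:**
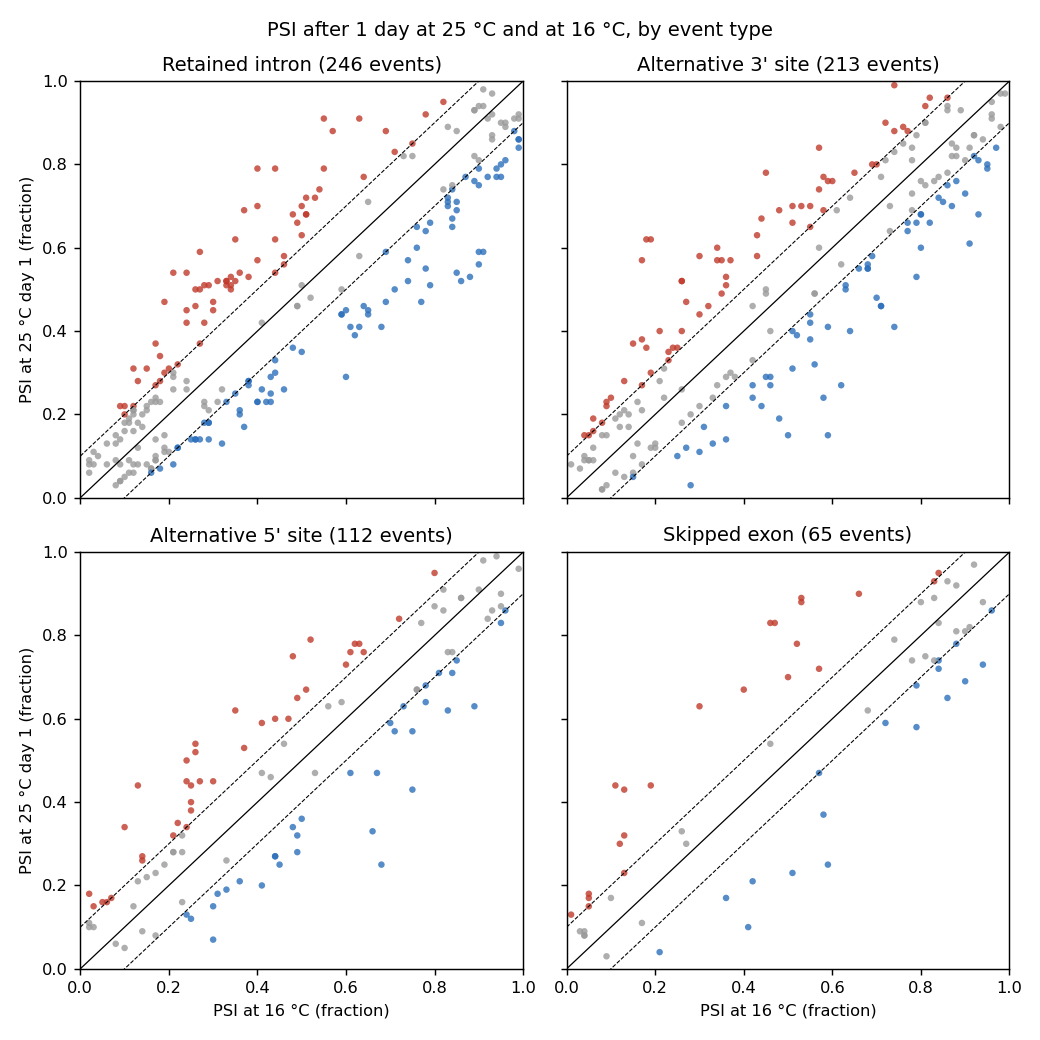
PSI at 25 °C day 1 (y axis) against PSI at 16 °C (x axis), 1 point per event, in a panel for each of RI, A3, A5 and SE. The solid line marks equal values and the dashed lines a difference of 0.10, with red points higher and blue points lower past it. Low 16 °C values have mostly red points and high ones mostly blue. Of the 37 RI events past 0.10 with a 16 °C PSI above 0.75, 35 were lower.

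In 95 of the 388 events past 0.10, in 82 genes, the 2 groups lay on opposite sides of 0.50, so that the major isoform of the event was another one. PSI was higher at 25 °C in 57 of them and lower in 38, and in RI events in 26 and 13. Only an event under 0.50 at 16 °C can cross upward, and the median 16 °C PSI of RI events was 0.38. Over all RI events past 0.10 the split was 68 higher and 85 lower. In 10 events of 9 genes one group was below 0.40 and the other above 0.60. A retained intron of AT1G14970, an O-fucosyltransferase family gene (chromosome 1), had 0.62 at 25 °C day 1 and 0.35 at 16 °C, then 0.52 and 0.72 at 25 °C on days 3 and 5. An A5 event of *UKL3*, which encodes a uridine kinase-like protein, also had 0.62 at 25 °C and 0.35 at 16 °C, with 0.58 and 0.63 on days 3 and 5. An A5 event of AT3G45750, a nucleotidyltransferase family gene, had 0.33 at 25 °C and 0.66 at 16 °C and stayed low, with 0.30 and 0.29 on days 3 and 5. In the opposite direction to AT1G14970, a retained intron of *MIR171b* had 0.39 at 25 °C and 0.62 at 16 °C.

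Among skipped exons, differences of both signs reached 0.30. At a difference of at least 0.20, 12 SE events were higher and 9 lower. Exon inclusion was 0.44 at 25 °C day 1 and 0.11 at 16 °C in the protein prenylyltransferase family gene AT1G10095, and 0.67 at 25 °C and 0.40 at 16 °C in the protein kinase gene AT1G65950. It was 0.44 at 25 °C and 0.19 at 16 °C in AT3G16700, a fumarylacetoacetate hydrolase family gene, and 0.70 at 25 °C and 0.50 at 16 °C in AT5G18230, which encodes a NOT subunit of a deadenylase complex. Exons were included less often at 25 °C in *GONST1*, a Golgi nucleotide sugar transporter gene (0.73 at 25 °C and 0.94 at 16 °C), in the RNA recognition motif gene AT2G33440 (0.23 at 25 °C and 0.51 at 16 °C) and in AT1G13350, a protein kinase gene (0.69 at 25 °C and 0.90 at 16 °C). In AT2G42920, a pentatricopeptide repeat gene, 2 SE events had 0.21 and 0.17 at 25 °C, against 0.42 and 0.36 at 16 °C. Of the MXE events, that of the nudix hydrolase gene *atnudt22* was past 0.10, with 0.58 at 25 °C day 1 and 0.41 at 16 °C.

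Genes were grouped by their annotation into 18 lists. The share of events past 0.10 is given below beside the 60.8% over the whole table, and the median absolute difference beside 0.11. These are counts of a selected table, and no list was tested.

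Genes of the splicing machinery had 18 of 28 events past 0.10 (64.3%, median 0.12), 13 higher at 25 °C and 5 lower, in 15 genes. A retained intron of *U2AF65A* (AT4G36690), whose protein binds the polypyrimidine tract ahead of the 3′ splice site, had PSI of 0.53 at 25 °C day 1 and 0.34 at 16 °C, while an A3 event of the same gene had 0.40 at 25 °C and 0.64 at 16 °C. On days 3 and 5 the intron had 0.45 and 0.41, and the A3 event 0.49 and 0.52, values between those of day 1 and 16 °C. A retained intron of AT1G60900, annotated as a large U2AF subunit too, had 0.68 at 25 °C and 0.51 at 16 °C. *AFC1* (AT3G53570), a gene for a LAMMER-type kinase of the kind that phosphorylates SR splicing regulators, had a retained intron with PSI 0.52 at 25 °C and 0.31 at 16 °C. Among the SR genes themselves, a retained intron of *SCL30A* had 0.63 at 25 °C and 0.50 at 16 °C, an SE event of *SR45a* 0.30 at 25 °C and 0.12 at 16 °C and an A3 event of *RS31* 0.64 at 25 °C and 0.77 at 16 °C. For *SR30* and *SR34*, A3 events differed by 0.10 (0.18 and 0.33 at 25 °C, against 0.08 and 0.23 at 16 °C). These are not the widest differences of the SR genes. Skipped exons of others reached 0.26 and -0.21. Lower at 25 °C were a skipped exon of *PTB1* (0.68 at 25 °C and 0.79 at 16 °C), a splicing repressor gene, and a retained intron of *ATSRL1*, a PRP38 family gene (0.71 at 25 °C and 0.85 at 16 °C). The gene of U1-70K, a core protein of the U1 particle, was under the threshold, with an A5 event of PSI 0.54 at 25 °C and 0.46 at 16 °C. Of the 6 RI events past 0.10 in this list, 5 were higher at 25 °C.

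Genes of other RNA-binding and processing proteins had 28 of 54 events past 0.10 (51.9%, median 0.10), 11 higher and 17 lower. In the KH domain gene AT5G15270 a retained intron had 0.51 at 25 °C day 1 and 0.29 at 16 °C. An A5 event of AT2G43465, an ASCH domain gene, had 0.45 at 25 °C and 0.24 at 16 °C and remained at 0.45 on days 3 and 5. Transcription factor and transcription machinery genes had 24 of 31 past 0.10 (77.4%, median 0.13), 11 higher and 13 lower. They took in *TPR1* (AT1G80490), a TOPLESS-related corepressor gene, whose A3 event had 0.60 at 25 °C and 0.34 at 16 °C. *HDG2*, a homeodomain gene of the epidermis, had an A5 event with PSI 0.45 at 25 °C and 0.27 at 16 °C, and AT1G72740, a homeodomain-like gene, one with PSI 0.28 at 25 °C and 0.49 at 16 °C. Chromatin genes had 17 of 24 past 0.10 (70.8%, median 0.125), 7 higher and 10 lower. A3 events of the bromodomain gene AT1G58025 had 0.51 at 25 °C and 0.36 at 16 °C, of the PHD finger gene AT4G23860 0.48 at 25 °C and 0.70 at 16 °C, and of *SHL1*, which encodes a reader of histone marks, 0.24 at 25 °C and 0.42 at 16 °C.

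Protein kinase genes had 26 of 39 events past 0.10 (66.7%, median 0.13), 15 higher and 11 lower. AT4G31240 is counted in this list but is annotated as a protein kinase C-like zinc finger protein. Whether it encodes a kinase was not checked. In this gene a retained intron had 0.54 at 25 °C day 1 and 0.24 at 16 °C. In the S-locus lectin kinase gene AT1G61430 one had 0.41 at 25 °C and 0.63 at 16 °C. Phosphatase genes had 5 of 8 past 0.10 (62.5%, median 0.155), 3 higher and 2 lower. An A3 event of AT3G63340, a PP2C family gene, had 0.78 at 25 °C and 0.45 at 16 °C and stood at 0.72 on both later days. Regulatory subunits of PP2A differed in both directions, with A5 events of PSI 0.78 and 0.67 at 25 °C, against 0.62 and 0.51 at 16 °C in AT1G13460, and one with PSI 0.25 at 25 °C and 0.45 at 16 °C in the B alpha gene AT1G51690.

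The 5 immune receptor genes had 8 of 9 events past 0.10 (88.9%, median 0.17), all 8 of them retained introns of TIR-NBS-LRR genes, which encode intracellular receptors of pathogen effectors. Of the 8, 5 were higher and 3 lower at 25 °C. *RPP4* (AT4G16860), a gene for resistance to downy mildew, had 5 RI events. In 4 of them PSI was higher, at 0.46, 0.47, 0.51 and 0.34 at 25 °C day 1, against 0.26, 0.30, 0.34 and 0.18 at 16 °C. The 5th had 0.88 at 25 °C and 0.98 at 16 °C. *RPP4* lies in a cluster of closely similar genes, so reads shared with its neighbours make these values uncertain. For AT5G40910 a retained intron had 0.70 at 25 °C and 0.40 at 16 °C, with 0.63 and 0.66 on days 3 and 5. *RPS6* and *RPS4*, both genes for resistance to *Pseudomonas*, had retained introns lower at 25 °C, with PSI 0.46 and 0.06 at 25 °C, against 0.64 and 0.16 at 16 °C.

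Ubiquitin and protease genes had 25 of 38 events past 0.10 (65.8%, median 0.11), 15 higher and 10 lower. The ubiquitin E2 variant genes *MMZ3* and *UEV1D-4*, which encode partners of an enzyme that builds ubiquitin chains, both had A5 events lower at 25 °C, with PSI 0.27 and 0.19 at 25 °C, against 0.44 and 0.33 at 16 °C. *DEG15*, a peroxisomal protease gene, had an A3 event with PSI 0.69 at 25 °C and 0.48 at 16 °C. In the autophagy gene *ATG5* a retained intron had 0.07 at 25 °C and 0.18 at 16 °C. DNA repair genes had 8 of 14 past 0.10 (57.1%, median 0.10), 5 higher and 3 lower. The largest was an A3 event of *REV3* (AT1G67500), which encodes the catalytic subunit of a translesion DNA polymerase, with 0.03 at 25 °C day 1 and 0.28 at 16 °C, and 0.10 and 0.07 on days 3 and 5. *XRCC2* and *BRCA2B*, genes of homologous recombination, had A3 events with PSI 0.40 and 0.15 at 25 °C, against 0.21 and 0.04 at 16 °C. Retained introns of *SUV2* and *TOP3A*, a checkpoint and a topoisomerase gene, each differed by 0.10 (0.20 and 0.32 at 25 °C, against 0.10 and 0.22 at 16 °C).

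Transport genes had 14 of 30 events past 0.10 (46.7%, median 0.09), 10 higher and 4 lower. A3 events had 0.47 at 25 °C day 1 and 0.27 at 16 °C in *CNGC6*, a cyclic nucleotide-gated channel gene, and 0.36 at 25 °C and 0.18 at 16 °C in the potassium antiporter gene *KEA5*. That of the phosphate transporter gene *PHT4;5* had 0.60 at 25 °C and 0.80 at 16 °C. Genes of the chloroplast and of photosynthesis had the lowest share, 8 of 24 (33.3%, median 0.06), 4 higher and 4 lower, and none of these reached 0.20. Over all events, the share past 0.10 was 38.9% with a 16 °C PSI under 0.25 and 49.7% above 0.75. Several events of this list lay in those bands, such as ones of *KEA1* (0.05 at 16 °C) and *HCF107* (0.89 at 16 °C). Whether the 16 °C level accounts for the low share was not tested. *SIG4*, a plastid sigma factor gene, had an A3 event with PSI 0.70 at 25 °C and 0.53 at 16 °C. *PGR5-LIKE A*, a gene of cyclic electron flow, had one with PSI 0.58 at 25 °C and 0.43 at 16 °C. *RH3*, a plastid RNA helicase gene, had one with PSI 0.22 at 25 °C and 0.36 at 16 °C. A retained intron of *ARC5*, a gene of chloroplast division, had 0.77 at 25 °C and 0.87 at 16 °C. The A5 event of *RCA*, which encodes Rubisco activase, was under the threshold with PSI 0.47 at 25 °C and 0.53 at 16 °C. The 3 of *APX1* differed by 0.03 to 0.04. They are counted among the 24, but the name ascorbate peroxidase 1 does not place that gene in the chloroplast. The share and median without *APX1* were not computed.

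Cytoskeleton and membrane traffic genes had 14 of 23 past 0.10 (60.9%, median 0.12), 5 higher and 9 lower. Retained introns of the *PAT2* gene, whose product is an adaptor subunit of vacuolar traffic, and of the VPS53 gene AT1G50970 were lower at 25 °C, with 0.13 and 0.47 at 25 °C, against 0.32 and 0.69 at 16 °C. Lipid genes had 9 of 17 past 0.10 (52.9%, median 0.10), 6 higher and 3 lower. The neighbouring genes *PLDGAMMA2* and *PLDGAMMA3* encode similar phospholipases, so shared reads are possible there. *PLDGAMMA2* had a retained intron with PSI 0.50 at 25 °C and 0.71 at 16 °C. The GDSL lipase gene AT3G26430 had an A3 event with PSI 0.99 at 25 °C and 0.74 at 16 °C, again 0.99 on day 3 and 0.90 on day 5. Sugar genes had 20 of 27 past 0.10 (74.1%, median 0.13), 11 higher and 9 lower. *SPP2*, a gene of the last step of sucrose synthesis, had an A5 event with PSI 0.62 at 25 °C and 0.83 at 16 °C. AT5G57270, annotated as a Core-2/I-branching enzyme, had one with PSI 0.07 at 25 °C and 0.30 at 16 °C.

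Pentatricopeptide and tetratricopeptide repeat genes had 11 of 17 events past 0.10 (64.7%, median 0.14), 3 higher and 8 lower, in 8 genes. Several of the lower events came from the same genes, AT1G06710 and AT2G42920. AT1G06710 had both a skipped exon with PSI 0.25 at 25 °C day 1 and 0.59 at 16 °C and a retained intron with PSI 0.47 at 25 °C and 0.77 at 16 °C. *OTP86* had an A5 event with PSI 0.54 at 25 °C and 0.26 at 16 °C. Its values at 25 °C on days 3 and 5 were 0.44 and 0.39. Chaperone and folding genes had 6 of 8 past 0.10 (75%, median 0.115), 1 higher and 5 lower. In *ATERDJ3A*, a gene for a J-domain protein of the endoplasmic reticulum, a retained intron had 0.44 at 25 °C and 0.65 at 16 °C, and in the DnaJ gene AT5G64360 an A3 event had 0.14 at 25 °C and 0.36 at 16 °C. In *Fes1B* a retained intron had 0.25 at 25 °C and 0.35 at 16 °C. The higher event was an A3 of *CYP38* (0.27 at 25 °C and 0.17 at 16 °C). Flowering time and clock genes each had 9 events past 0.10, 4 higher and 5 lower in both lists, of 14 (64.3%, median 0.115) and 13 (69.2%, median 0.10). AT5G06980, a relative of the *LNK* clock coactivators, had 2 A3 events lower at 25 °C, with PSI 0.53 and 0.79 at 25 °C, against 0.79 and 0.95 at 16 °C. The largest difference of the clock list, 0.32, was in another gene and in the opposite direction. In no list stood 206 genes, with 151 of 252 events past 0.10 (59.9%, median 0.12), 70 higher and 81 lower.

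**Figure D3:**
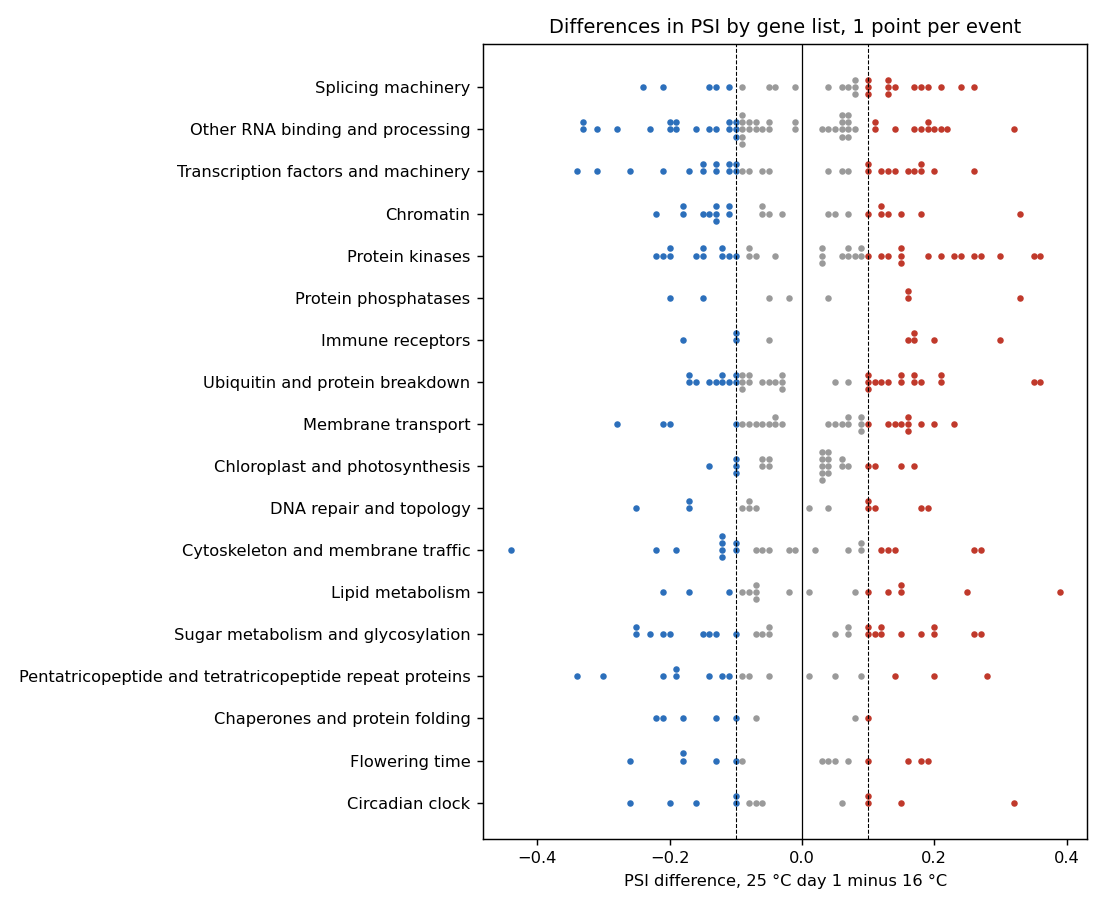
PSI difference, 25 °C day 1 minus 16 °C (x axis), of every event in each of the 18 gene lists (rows), 1 point per event, stacked where values are equal. Dashed lines stand at -0.10 and 0.10, and colours are as in the plots by event type. Each list has points on both sides of 0, and the chloroplast list lies closest to it, within -0.14 to 0.17.

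Several events of 1 gene did not always differ in the same direction. Of the 86 genes with at least 2 events in the table, 52 had at least 2 past 0.10. All of these were higher at 25 °C in 15 genes, all lower in 19, and 18 had both. In 14 of the 18 the opposite events were of different types, and in 4 also of the same type. AT1G62130, an AAA-type ATPase gene, had 3 RI events at 0.50, 0.68 and 0.70 at 25 °C day 1, against 0.27, 0.48 and 0.50 at 16 °C. Its 2 A3 events had 0.68 and 0.61 at 25 °C day 1, against 0.93 and 0.91 at 16 °C. The RI events thus lay higher by 0.20 to 0.23 and the A3 events lower by 0.25 and 0.30. In *CRK29*, a receptor-like kinase gene, 1 RI event had 0.31 at 25 °C and 0.12 at 16 °C and another 0.14 at 25 °C and 0.29 at 16 °C. In AT1G13350 an A5 event had 0.34 at 25 °C and 0.10 at 16 °C while the skipped exon given above was lower. AT1G50970 had an A5 event with PSI 0.84 at 25 °C and 0.72 at 16 °C, with its retained intron lower. Where a gene has events that overlap, one PSI can move with another, and the table gives no positions to tell.

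**Figure D4:**
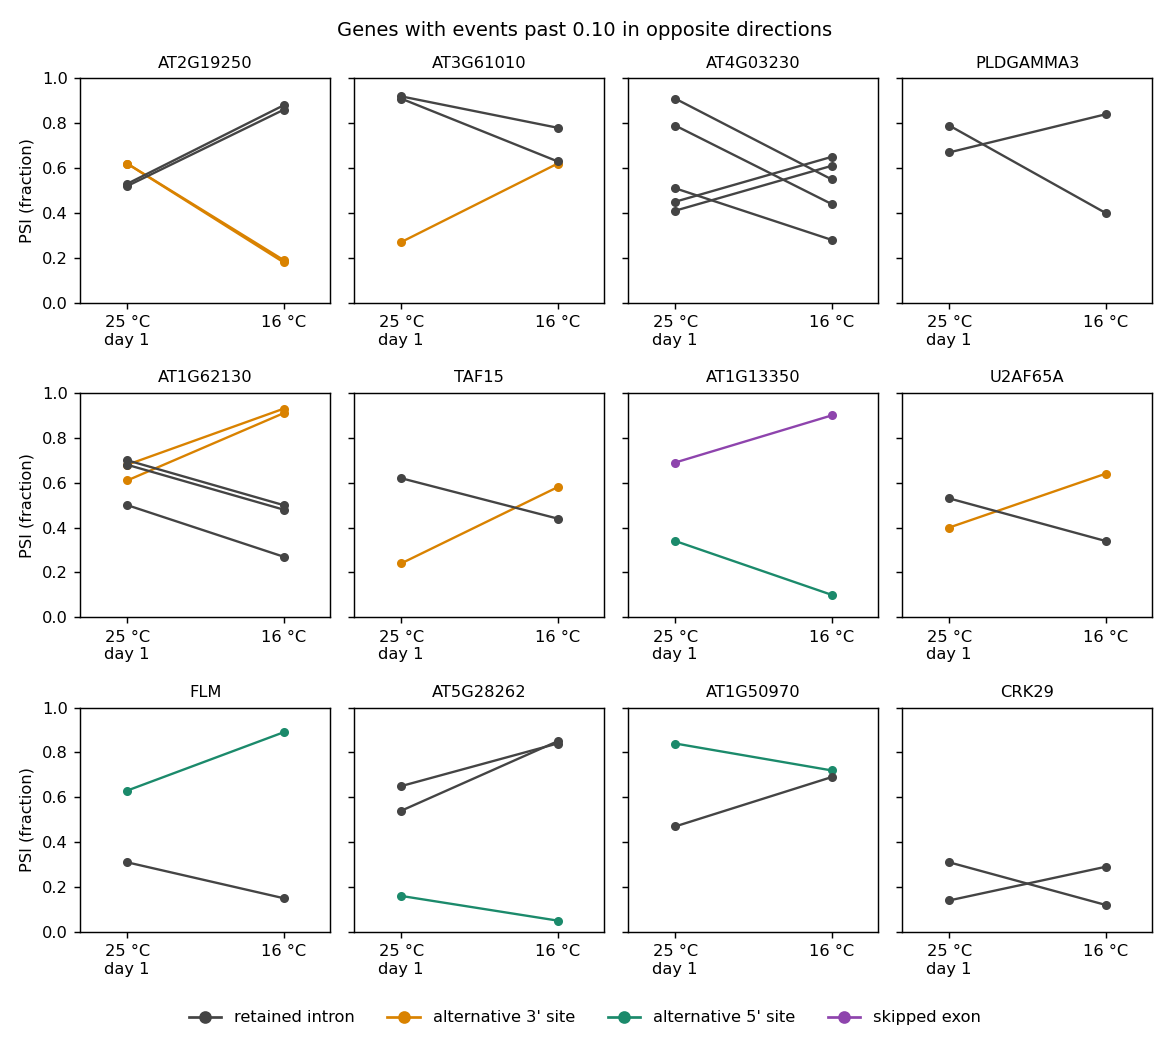
PSI (y axis) of each event past 0.10 at 25 °C day 1 (left) and at 16 °C (right) in the 12 genes with the widest gap between opposite events, 1 line per event, coloured by type. Each panel holds lines that slope in opposite directions. In AT4G03230, *PLDGAMMA3* and *CRK29* the opposite lines are all RI events. FLM is listed as MAF1 in the table.

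Some assembled loci hold events of 2 genes. In 7 assembled loci the authors' assembly joined neighbouring genes, with 16 events in all. *MYA2*, a myosin gene, and AT5G43910, a carbohydrate kinase gene, shared such a locus, and each had an A3 event with PSI 0.52 at 25 °C day 1 and 0.26 at 16 °C. The A3 events of *ATTAP1* and the neighbouring AT1G70620 had 0.57 and 0.57 at 25 °C, against 0.34 and 0.35 at 16 °C. The SE events of AT5G18250 and AT5G18245, among the highest differences in the table, had 0.83 and 0.83 at 25 °C, against 0.46 and 0.47 at 16 °C. Whether such a pair is 1 event listed under both genes was not tested.

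The 27 genes that RefSeq lists as non-coding or as pseudogenes had 30 of 38 events past 0.10 (78.9%), 9 higher and 21 lower. Protein-coding genes had 357 of 599 (59.6%), 182 higher and 175 lower. The 27 are also the genes without annotation text in the table, and whether the 2 classes differ was not tested. AT2G46730, a transcribed pseudogene, had an A3 event with PSI 0.57 at 25 °C day 1 and 0.17 at 16 °C, the third highest difference in the table, with 0.52 and 0.53 on days 3 and 5. AT3G46385, also a transcribed pseudogene, had one with PSI 0.19 at 25 °C and 0.48 at 16 °C, again 0.19 on both later days. In AT2G07042, a non-coding RNA gene, an A5 event had 0.43 at 25 °C and 0.75 at 16 °C and a retained intron 0.20 at 25 °C and 0.36 at 16 °C. Among long non-coding RNAs, 2 A3 events of AT4G26795 were higher at 25 °C, with PSI 0.76 and 0.74 at 25 °C, against 0.60 and 0.57 at 16 °C. Both microRNA genes in the table had retained introns in their primary transcripts that were lower at 25 °C. For *MIR171b*, a family that targets GRAS transcription factors, PSI was 0.39 at 25 °C day 1 and 0.62 at 16 °C, with 0.52 and 0.52 on days 3 and 5. For *MIR824*, whose target is a MADS-box gene, 2 RI events had the same 4 values, 0.23 at 25 °C day 1 and 0.40 at 16 °C, and 0.35 and 0.31 on days 3 and 5. PSI gives shares of isoforms only, so neither the amount of these transcripts nor that of the mature microRNAs was measured here.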

How the data were processed

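RNA was sequenced from stranded mRNA libraries. Per the submitters' processing notes, TopHat and Cufflinks were used with the TAIR10 genome. Per the methods, events were found by custom scripts in the assembled isoforms and quantified with MISO. No versions are stated. The deposited PSI values are fractions per group, rounded to 2 decimals (0.01 to 0.99). Per the methods, MISO was run on each sample and on merged replicates, samples served to filter events and merged replicates to call them; which of the runs gave the deposited values is not stated. A further column with the authors' own calls by day was not used.

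The difference 25 °C day 1 minus 16 °C was computed for 638 events (Python 3.11.15, pandas 2.3.3) in whole hundredths, and tested on simulated data. No test was run, since each group has 1 value. Members and gene lists were chosen with earlier results of these data known, and keywords were trimmed after the matches had been seen. Named genes were taken from the 10 highest and 10 lowest events, up to 4 each way per list, 12 genes with opposite events, events from below 0.40 to above 0.60 or the reverse, events of single-intron genes and all MXE. Others, among them most skipped exons, the non-coding genes and the introns above 0.75, were named after their values were seen. Of 511 genes, 510 were found in RefSeq (TAIR10.1), and of 599 events with table coordinates 598 lay inside the RefSeq gene. Intron sequences came from that assembly. Alternatives covered the threshold, rounding, identical events, 1 event per gene, and the 16 °C range.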

Additional observations from a re-analysis of the deposited data

How the results depend on the processing

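Of 49 alternatives, 44 left the value within its limits and 5 moved it. The limits were wide. Counts and medians had to stay within a fixed ratio of the main value, so 576 events at a threshold of 0.05 passed beside 388. Shares had to stay in a binomial 95% interval that treats events as independent, which those of 1 gene need not be. Counts fell as the threshold was raised: 232 events in 187 genes differed by at least 0.15, and 126 events in 109 genes by at least 0.20. The share of RI events that were higher was 53.2% at 0.20 and 44.4% at 0.10, so the direction of the majority turned with the threshold. No paired analysis was possible because the table holds 1 value per group, and for the same reason no sample could be left out. Read depth per event is unknown, so no interval could be given. A change of 0.10 near PSI of 0 or 1 and one near 0.50 need different numbers of reads. Plant-to-plant spread, overlap between events and reads shared by similar genes were not tested.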
